A study of Rattus norvegicus with 10 samples.

Results

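The genes of glycogen synthesis and breakdown were followed in hearts of aged and adult rats. The 9 genes were listed by name: Gyg1, Ugp2, Gys1, Gbe1 and Ppp1r3c on the side of synthesis, and Pygm, Pygb, Phka1 and Phkb on the side of breakdown. Members were all probe sets whose only symbol in the platform annotation was one of these names, and 8 of the 9 genes were found, on 11 probe sets. They were part of 14217 named genes measured in all. Ppp1r3c was not analysed here. Gene expression had been measured on an Affymetrix expression array for the rat genome, with 5 arrays from aged rats (24 months old) and 5 from adult rats (6 months old). Both groups were males of the inbred Fischer-344 strain, fed standard chow, with no treatment or transgene named for either. Whole hearts are named as the source in the sample protocols but ventricles in the series text, which leaves unclear whether atria were included. Because nothing in the labels ties each array to a rat of its own, the p-values speak of the spread among these arrays, which may be technical.

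Glycogen is the branched glucose store of the cell, and in heart muscle it is drawn on quickly when work rises or oxygen falls. Its synthesis starts on glycogenin, a protein that glucosylates itself, and uses UDP-glucose made by UDP-glucose pyrophosphorylase. Glycogen synthase lengthens the chains, and the branching enzyme adds the branch points. Glycogen phosphorylase releases glucose 1-phosphate from the chain ends. It is switched on by phosphorylase kinase, a complex of alpha, beta, gamma and delta subunits that responds to calcium and to adrenergic signals. Protein phosphatase 1 reverses this with the help of glycogen-targeting subunits such as the Ppp1r3c product.

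In aged hearts the genes of muscle glycogen phosphorylase (Pygm) and muscle glycogen synthase (Gys1) were lower and the glycogenin gene (Gyg1) was higher. Pygm fell by 0.55 on the log2 scale, a change of -31.7%. Gys1 fell by 0.36, a change of -21.9%, and Gyg1 rose by 0.26, a change of 20.1%. The other 5 genes did not pass the test. A gene is said to have risen or fallen where its adjusted p was under 0.05 by limma with Benjamini-Hochberg adjustment over all 14217 genes. Of the 8 members 1 rose and 2 fell, where 11.9% of all genes passed (6.77% upward and 5.09% downward). The same 3 were the members whose aged and adult arrays did not overlap, as was the case for 9.91% of all genes. In 2 of them every aged array was below every adult array (4.78% of all genes) and in 1 every aged array was above (5.13%). The median difference over the 8 members was -0.0124, against -0.0050 over all genes tested, and the median size of the difference was 0.16, against 0.08. A single array or a change of design moved the count of members called. It was 4 without aged replicate 2, and 2 when aged replicate 5 or any 1 adult array was left out. It was 1, that of Pygm, without aged replicates 3 and 6 together.

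All values are log2 values from which the median of the 10 arrays had been taken for each probe set, with the log base inferred from the numbers. They give differences between arrays and no level, and members cannot be ranked by abundance. Where the groups do not overlap in a probe set, 0 lies midway between its nearest aged and adult arrays by construction. This need not hold for a gene averaged over several probe sets. The numerical step of the values allowed each probe set to be placed in 1 of 3 approximate brightness classes. Of the 11 member probe sets 6 were in the brightest, 4 in the middle and 1 in the dimmest. Of all 31042 probe sets 3543 were in the brightest, 22542 in the middle and 4957 in the dimmest. The shares given for all genes and probe sets thus come from a less bright set than the members. Of 8 listed cardiomyocyte markers 7 were measured, and the brightest class held a probe set of each, as it did for 19.4% of the named genes. Array medians lay between -0.0097 and 0.0038 in aged hearts and between -0.0061 and 0.0093 in adult hearts.

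The promoters of the 3 genes that changed are shown because they let a reader compare the genes that fell with the one that rose. Each is the window from 250 bases before to 50 bases after the start of the gene in RefSeq, assembly GRCr8, printed 5′ to 3′ on the strand of the gene. All 9 listed genes had an entry in that table. Capitals mark the letters CANNTG, the E-box, which reads the same on both strands.
Pygm, plus strand, chr1:213119555-213119854: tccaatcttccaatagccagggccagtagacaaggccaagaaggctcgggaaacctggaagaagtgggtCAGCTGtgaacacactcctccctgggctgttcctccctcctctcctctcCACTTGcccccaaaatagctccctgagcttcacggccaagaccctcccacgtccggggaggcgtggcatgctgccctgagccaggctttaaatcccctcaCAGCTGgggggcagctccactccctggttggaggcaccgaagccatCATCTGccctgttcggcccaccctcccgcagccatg
Gys1, plus strand, chr1:105051666-105051965: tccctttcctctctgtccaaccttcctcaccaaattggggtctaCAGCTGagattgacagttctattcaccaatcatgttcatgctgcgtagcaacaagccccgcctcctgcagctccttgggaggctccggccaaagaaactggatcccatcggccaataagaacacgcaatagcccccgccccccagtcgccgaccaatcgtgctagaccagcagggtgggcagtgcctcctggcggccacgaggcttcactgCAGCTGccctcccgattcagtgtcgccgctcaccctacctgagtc
Gyg1, minus strand, chr2:104582728-104583027: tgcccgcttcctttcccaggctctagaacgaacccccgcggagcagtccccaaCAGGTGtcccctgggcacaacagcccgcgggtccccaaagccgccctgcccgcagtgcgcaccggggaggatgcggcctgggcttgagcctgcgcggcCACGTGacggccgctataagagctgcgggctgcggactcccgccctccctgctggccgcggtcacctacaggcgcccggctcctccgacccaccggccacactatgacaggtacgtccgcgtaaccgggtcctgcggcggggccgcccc
The Pygm window held 4 E-boxes, the Gys1 window 2 and the Gyg1 window 2. Both in Gys1 and 2 of those in Pygm had the form CAGCTG, which is contained in CANNTG. In Pygm these lay 181 and 32 bases before the start, and in Gys1 they lay 206 bases before it and 5 bases after it. The E-boxes of Gyg1 read CAGGTG and CACGTG and lay 197 and 99 bases before the start. CANNTG was found in 72.1% of the 33469 windows of the table and in those of 6 of the 9 listed genes. CAGCTG was found in 15.1% of all windows and in 3 of the 9, those of Pygm, Gys1 and Ppp1r3c. The Sp1 box GGGCGG, searched on both strands, stood 3 times in the Gyg1 window and once in that of Gys1, and it was in the windows of 6 of the 9 listed genes and in 33.1% of all windows. The letters TNAAGGTCA of the estrogen-related receptors were in the windows of 0 of the 9 listed genes and in 1.2% of all windows. The 33469 windows belong to 27457 genes, so these shares count windows while the counts of the listed genes count genes. The MEF2 motif was also in 0 of the 9 and in 0.565% of all windows. These matches describe the letters of the windows and were not related to the arrays by any test.

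**Figure D1:**
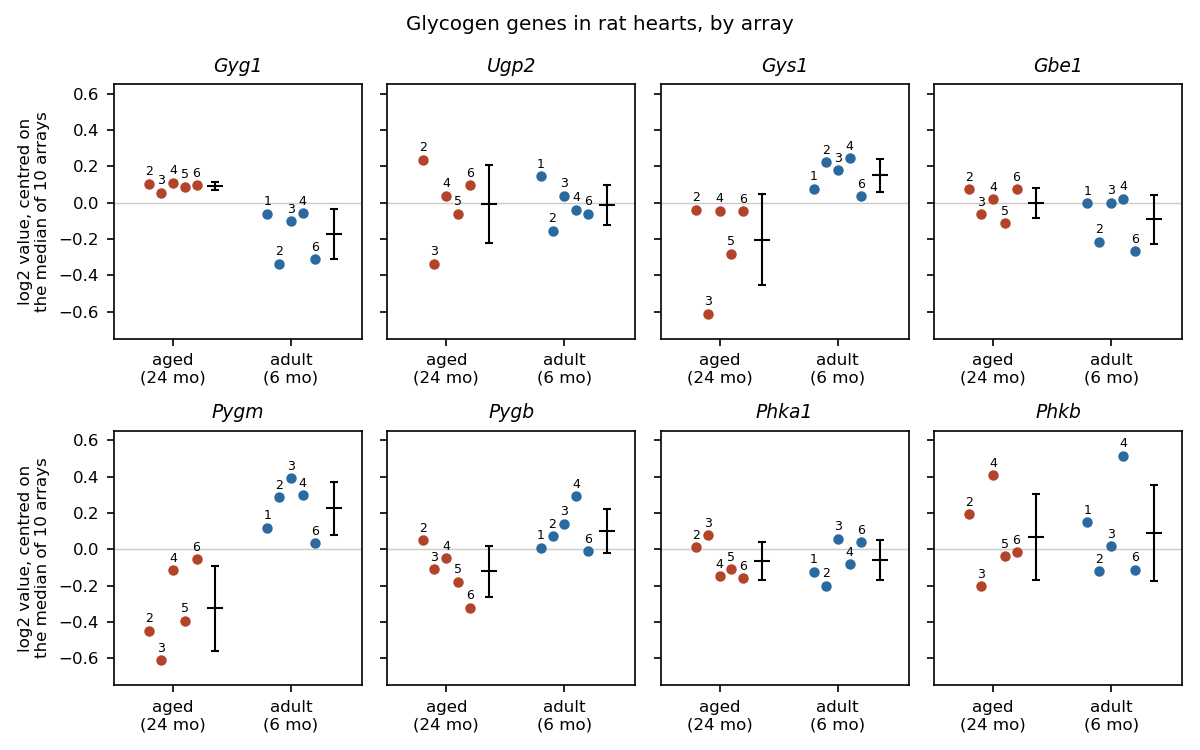
Log2 values, centred on the median of the 10 arrays, for the 8 measured glycogen genes in aged (24 months, left, red) and adult (6 months, right, blue) hearts. Each point is an array with its replicate number, and the black bars give the mean and SD of 5 arrays. Aged points lie above all adult points for Gyg1 and below all adult points for Gys1 and Pygm, while the groups overlap for the other 5 genes.

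Gyg1 encodes glycogenin, the primer of the glycogen particle. Its values were 0.11, 0.06, 0.11, 0.09 and 0.10 in aged replicates 2, 3, 4, 5 and 6, against -0.06, -0.34, -0.10, -0.06 and -0.31 in adult replicates 1, 2, 3, 4 and 6. All aged arrays lay above all adult arrays. The aged arrays were close together, with an SD of 0.02, and the adult arrays had an SD of 0.14, with replicates 2 and 6 far below the rest of their group. The difference was 0.26 ± 0.06 (SE, 95% CI 0.13 to 0.40, limma adjusted p = 0.0178, n = 5 per age). The call held when any 1 array was left out (difference 0.22 to 0.29, adjusted p 0.0163 to 0.0429). It was lost without aged replicates 3 and 6 together (0.27, adjusted p = 0.0549).

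Ugp2 encodes UDP-glucose pyrophosphorylase, which makes the glucose donor. Its values were 0.24, -0.34, 0.04, -0.06 and 0.10 in aged replicates 2 to 6, against 0.15, -0.15, 0.04, -0.04 and -0.06 in adult replicates 1, 2, 3, 4 and 6. The adult range lay inside the aged range. The difference was 0.0090 ± 0.09 (SE, 95% CI -0.20 to 0.21, adjusted p = 0.965), so changes within that interval are not excluded by these arrays.

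Gys1 encodes the muscle form of glycogen synthase, which adds glucose to the growing chains. Its values were -0.04, -0.61, -0.04, -0.28 and -0.05 in aged replicates 2 to 6, against 0.08, 0.22, 0.18, 0.24 and 0.04 in adult replicates 1, 2, 3, 4 and 6. The groups did not overlap, but 3 aged arrays lay just below the lowest adult array, with a gap of 0.07, and aged replicate 3 lay far below the others. The difference was -0.36 ± 0.10 (SE, 95% CI -0.58 to -0.13, limma adjusted p = 0.0414, n = 5 per age). The call was close to the threshold. It was lost without any 1 adult array (adjusted p 0.0525 to 0.0937) and without aged replicate 5 (0.0953). Leaving out both aged replicates 3 and 6 also ended it (-0.27, adjusted p = 0.0510). Without aged replicate 3 alone the difference was -0.25 and the call stood (0.0301).

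Gbe1 encodes the branching enzyme. Its values were 0.07, -0.06, 0.02, -0.11 and 0.07 in aged replicates 2 to 6, against -0.0013, -0.21, 0.0013, 0.02 and -0.27 in adult replicates 1, 2, 3, 4 and 6. Adult replicates 2 and 6 were the lowest arrays, as they were for Gyg1, and the other 8 arrays were mixed between the ages. The difference was 0.09 ± 0.07 (SE, 95% CI -0.06 to 0.24, adjusted p = 0.453). Among the 28 pairs of members, Gyg1 and Gbe1 had the smallest root mean square difference over the 10 arrays, 0.10 on the log2 scale. Adult replicate 2 also stood apart in 4 adipocyte markers, with a mean of 1.37 against -0.22 to -0.07 in the other adult arrays and -0.21 to -0.11 in aged arrays. The part of these markers in the values of Gyg1 and Gbe1 was not tested beyond leaving the array out, which gave 0.22 for Gyg1 (adjusted p = 0.0417) and 0.06 for Gbe1 (0.685).

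**Figure D2:**
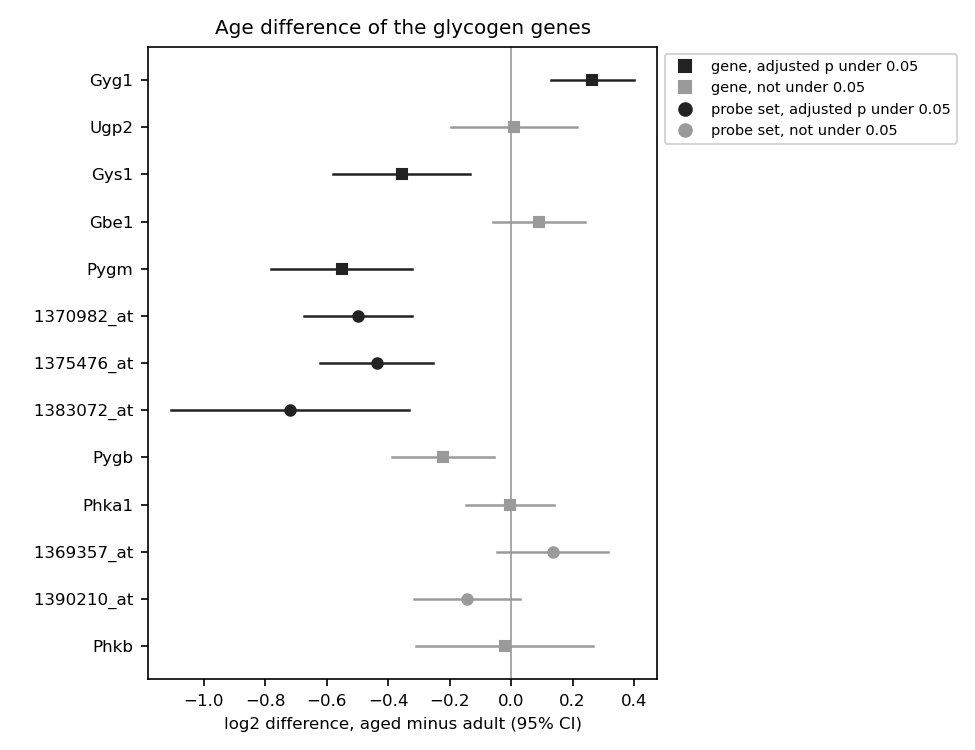
Differences of log2 values, aged minus adult, with 95% confidence intervals from limma for the 8 genes (squares) and, where a gene had several probe sets, for each probe set (circles). Black marks have an adjusted p under 0.05; Gyg1 lies at 0.26, Gys1 at -0.36, Pygm at -0.55 and its 3 probe sets between -0.72 and -0.44.

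Pygm encodes the muscle form of glycogen phosphorylase, the enzyme absent in McArdle disease. Its gene values, the mean of 3 probe sets, were -0.45, -0.61, -0.12, -0.39 and -0.05 in aged replicates 2 to 6, against 0.12, 0.29, 0.39, 0.30 and 0.03 in adult replicates 1, 2, 3, 4 and 6. All aged arrays lay below all adult arrays, with aged replicates 4 and 6 nearest to the adult range. The difference was -0.55 ± 0.11 (SE, 95% CI -0.78 to -0.32, limma adjusted p = 0.00686, n = 5 per age), and 0.506% of all genes had a larger fall. The call held without any 1 array (difference -0.62 to -0.48, adjusted p 0.00580 to 0.0232) and without aged replicates 3 and 6 together (-0.55, 0.00903).

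Of the 11 member probe sets 1 rose (Gyg1) and 4 fell (Gys1 and all 3 of Pygm) in the test over all 31042 probe sets, of which 8.03% passed, 4.42% upward and 3.6% downward. Aged and adult arrays were fully apart in 4 of the 11, against 7.32% of all probe sets (3.67% with the aged arrays above and 3.65% with them below). Probe set 1370982_at, of the brightest class, gave -0.21, -0.39, -0.09, -0.36 and -0.14 in aged replicates 2 to 6, against 0.12, 0.39, 0.37, 0.33 and 0.09 in adult replicates 1, 2, 3, 4 and 6. It separated the ages with a gap of 0.17, and its difference was -0.50 ± 0.08 (SE, limma adjusted p = 0.00332). Probe set 1375476_at, of the middle class, gave -0.36, -0.42, -0.25, -0.46 and -0.03 in aged arrays, against 0.04, 0.13, 0.33, 0.15 and 0.03 in adult arrays of the same order. Here too the ages were apart, by 0.05, and the difference was -0.44 ± 0.08 (SE, limma adjusted p = 0.00790). Probe set 1383072_at, of the dimmest class, gave -0.78, -1.02, -0.01, -0.36 and 0.01 in aged arrays, against 0.20, 0.34, 0.48, 0.41 and -0.01 in adult arrays. In this probe set aged replicate 6 lay above adult replicate 6, and the aged arrays spread over 1.03. Its difference was -0.72 ± 0.18 (SE, adjusted p = 0.0269), and leaving out adult replicate 2, 3 or 4, or aged replicate 5, ended its call (adjusted p 0.0556 to 0.0762). Without the dimmest probe set the gene difference was -0.47 (adjusted p = 0.00347).

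**Figure D3:**
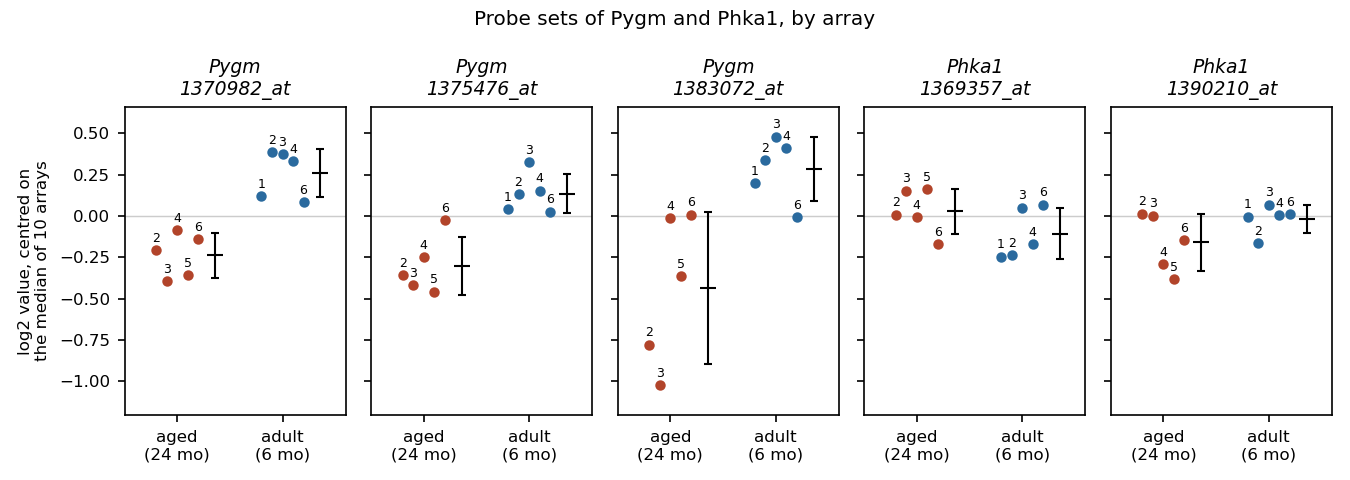
Log2 values, centred on the median of the 10 arrays, for the 3 probe sets of Pygm and the 2 probe sets of Phka1 in aged (left, red) and adult (right, blue) hearts. Points are arrays with their replicate numbers and black bars the mean and SD of 5 arrays; the aged values of the Pygm probe set 1383072_at reach from -1.02 to 0.01, and the means of the Phka1 probe sets differ between the ages in opposite directions.

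Pygb encodes the brain form of phosphorylase, which heart muscle also makes. Its values were 0.05, -0.11, -0.05, -0.18 and -0.32 in aged replicates 2 to 6, against 0.01, 0.07, 0.14, 0.29 and -0.01 in adult replicates 1, 2, 3, 4 and 6. Of the aged arrays 4 lay below the lowest adult array, and aged replicate 2 lay within the adult range. The difference was -0.22 ± 0.08 (SE, 95% CI -0.39 to -0.06) and did not pass over all genes (limma adjusted p = 0.0801, unadjusted p = 0.0127). It passed without aged replicate 2 (-0.27, adjusted p = 0.0371).

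Neither measured member of the kinase that activates phosphorylase, Phka1 or Phkb, gave a difference that passed. Phka1 encodes its muscle alpha subunit, which is regulatory. The gene had -0.0037 ± 0.07 (SE, 95% CI -0.15 to 0.14, adjusted p = 0.980), with values from -0.16 to 0.08 in aged arrays (median -0.11) and from -0.20 to 0.06 in adult arrays (median -0.08). Its 2 probe sets did not give the same direction. Probe set 1369357_at gave 0.01, 0.15, -0.01, 0.16 and -0.17 in aged replicates 2 to 6, against -0.24, -0.24, 0.05, -0.17 and 0.07 in adult replicates 1, 2, 3, 4 and 6, a difference of 0.14 (95% CI -0.04 to 0.32, adjusted p = 0.384). Probe set 1390210_at gave 0.02, 0.0033, -0.29, -0.38 and -0.15 in aged arrays, against -0.0033, -0.16, 0.07, 0.01 and 0.01 in adult arrays, a difference of -0.14 (95% CI -0.32 to 0.03, adjusted p = 0.334). Aged replicates 4, 5 and 6 were low in the second of these, whereas aged replicates 3 and 5 were the highest arrays in the first. Whether the probe sets differ was not tested, and the sources used here do not say which transcripts each detects.

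Phkb encodes the beta subunit, also regulatory. Its values were 0.19, -0.20, 0.41, -0.04 and -0.02 in aged replicates 2 to 6, against 0.15, -0.12, 0.02, 0.52 and -0.11 in adult replicates 1, 2, 3, 4 and 6. The ages overlapped almost fully, with replicate 4 the highest array of each. The difference was -0.02 ± 0.13 (SE, 95% CI -0.31 to 0.27, adjusted p = 0.946), the widest interval of the 8 genes.

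For 3 pairs of members the difference between the 2 genes was taken within each array, which asks whether they changed unequally and needs no common level. The tests were two-sided exact permutation tests with Benjamini-Hochberg adjustment over the 3, and 5 arrays against 5 allow no p below 0.00794. Gys1 minus Pygm was 0.41, 0.0014, 0.07, 0.11 and 0.0057 in aged replicates 2 to 6, against -0.04, -0.06, -0.21, -0.05 and 0.0031 in adult replicates 1, 2, 3, 4 and 6. It was higher in 4 of 5 aged arrays than in any adult array, a difference of 0.19 (exact permutation p = 0.0159, adjusted p = 0.0476). By this measure Pygm was lowered more than Gys1 in these arrays. Both members were chosen with earlier results of these data known, so the p-value is no independent support. The call of Gys1 minus Pygm was lost without the dimmest Pygm probe set (0.11, exact permutation p = 0.230, adjusted p = 0.345). It was also lost with the median of the probe sets (0.13, adjusted p = 0.274). Leaving out aged replicate 2, 4 or 5 or adult replicate 1, 2, 3 or 4 ended it too (exact permutation p = 0.0317, adjusted p = 0.0952 each). Given the other pairs, only the smallest p of 4 arrays against 5, 0.0159, could have passed there. These last losses thus say little of the difference. Pygb minus Pygm compares the brain with the muscle form. It was 0.50, 0.50, 0.07, 0.22 and -0.27 in aged replicates 2 to 6, against -0.11, -0.21, -0.25, -0.01 and -0.04 in adult replicates 1, 2, 3, 4 and 6. The aged arrays were above the adult range in 4 of 5 cases and aged replicate 6 was below it, so the difference of 0.33 did not pass (exact permutation p = 0.0794, adjusted p = 0.119). It passed without aged replicate 6 (0.45, adjusted p = 0.0476). Phkb minus Phka1 averaged 0.13 ± 0.30 in aged hearts and 0.15 ± 0.30 in adult hearts (SD, n = 5 each, exact permutation p = 0.929).

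**Figure D4:**
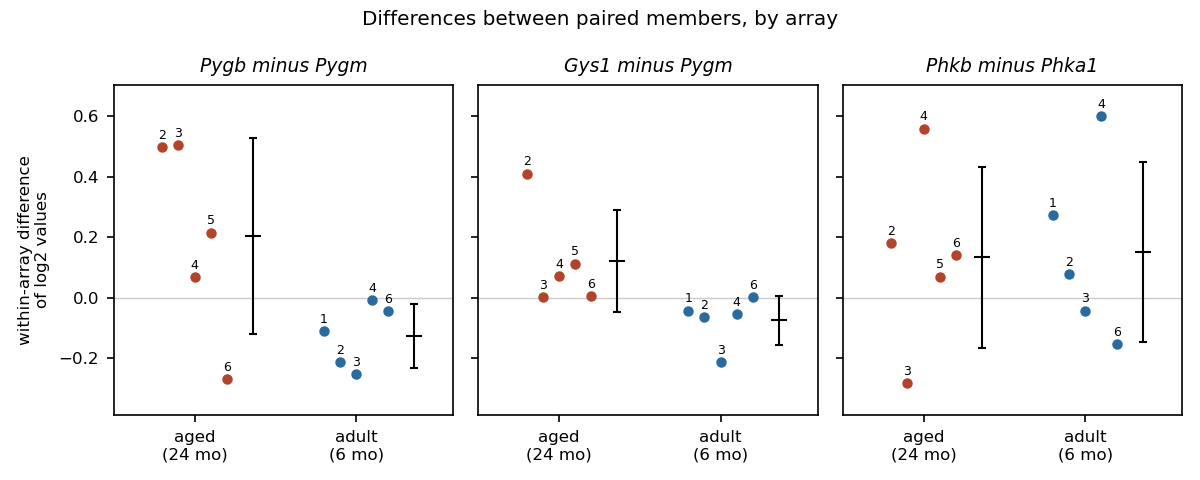
Differences of log2 values between 2 members within each array, for Pygb minus Pygm, Gys1 minus Pygm and Phkb minus Phka1, in aged (left, red) and adult (right, blue) hearts, with replicate numbers and with mean and SD of 5 arrays as black bars. In Gys1 minus Pygm aged replicate 2 stands at 0.41 and in Pygb minus Pygm aged replicate 6 stands at -0.27.

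Gyg1 and Gys1, whose products start and extend the same chains, moved in opposite directions in the arrays. Gyg1 minus Gys1 lay between 0.14 and 0.67 in aged arrays and between -0.56 and -0.14 in adult arrays. This is given as a description because the genes had already been called in opposite directions. Aged replicate 3 was the lowest array for 4 of the 8 members, Ugp2, Gys1, Pygm and Phkb, and the highest for Phka1. The share of all genes for which it was lowest is not given here. Its values over all probe sets were widely spread, with an SD of 0.20. The SD was 0.12 to 0.18 in adult arrays and 0.13 to 0.21 over all aged arrays. Aged replicate 3 was also the array with the highest lymphocyte marker score, 0.63, against -0.05 to 0.20 in the other aged arrays and -0.27 to -0.04 in adult arrays. The cardiomyocyte marker score of aged replicate 3 was the lowest of all arrays, -0.30. That score was -0.23 to 0.00 in the other aged arrays and 0.09 to 0.25 in adult arrays. The part of either score in the member values was not tested.

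The arrays measure heart muscle cells in a mixture with other cells, so fewer cells of a type and less RNA per cell cannot be told apart. The mean of the 7 cardiomyocyte markers lay between -0.30 and 0.00 in aged arrays and between 0.09 and 0.25 in adult arrays. Of these markers 2 fell, the alpha myosin heavy chain gene Myh6 (-1.24) and the calcium release channel gene Ryr2 (-0.55), and the other 5 had differences between -0.13 and -0.08. Macrophage markers had a score of -0.07 to 0.93 in aged arrays and -0.56 to -0.14 in adult arrays, and 3 of 6 rose, although 2 of the 6 had probe sets of the dimmest class only. Fibroblast markers had -0.12 to 0.39 in aged arrays and -0.32 to 0.01 in adult arrays, and 3 of 6 rose. Of the lymphocyte markers 1 of 6 rose, the granzyme A gene Gzma (1.98). The others did not pass: Cd8a had 0.29 and Cd3e 0.02, while Cd3d, Cd2 and Cd79b had lower means in aged hearts (-0.12, -0.10 and -0.10). Atrial markers had 0.19 to 0.86 in aged arrays and -1.02 to -0.26 in adult arrays, and 2 of 4 rose, the natriuretic peptide gene Nppa (2.69) and the myosin light chain gene Myl7 (1.45). The 4 smooth muscle, 3 endothelial, 4 adipocyte and 3 red cell markers measured had 0 calls in limma. The part of these markers in the glycogen gene differences was not tested.

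The genes whose pattern over the 10 arrays was most like that of Pygm and Gyg1 were found by the root mean square difference of log2 values against all other 14216 genes. For Pygm they were Fem1a (0.11), Grb14 (0.12) and Slco3a1 (0.13), with age differences of -0.41, -0.50 and -0.34. For Gyg1 they were Txndc12, Serinc3 and Cltc, at 0.05, 0.05 and 0.06, with age differences of 0.29, 0.23 and 0.26. As for Gyg1, adult replicate 2 was the lowest array of Txndc12, Serinc3 and Cltc. Likeness in single arrays and in the age difference follows largely from this way of picking genes and is no separate result.

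Other genes of the pathway were examined in 2 lists. Of 27 listed enzymes, scaffolds and phosphatase subunits of glycogen metabolism 21 were measured, and 2 rose and 3 fell. Of all genes 11.9% passed, 6.77% upward and 5.09% downward. Calm2 encodes calmodulin, which serves phosphorylase kinase as its calcium-binding delta subunit and has many other partners. It had 0.05, 0.42, 0.48, 0.37 and 0.63 in aged replicates 2 to 6, against -0.05, -0.30, -0.10, -0.18 and -0.06 in adult replicates 1, 2, 3, 4 and 6, and rose by 0.53 ± 0.09 (SE, limma adjusted p = 0.00476). The ages did not overlap, and aged replicate 2 was the only aged array near the adult range. Pgm2l1, which encodes a synthase of glucose 1,6-bisphosphate, rose by 0.21 (adjusted p = 0.0407). Ppp1r3d, a glycogen-targeting subunit gene of protein phosphatase 1 like Ppp1r3c, fell by 0.36 (adjusted p = 0.0172), with its 2 probe sets at -0.68 and -0.04. Gsk3b, which encodes a kinase that inhibits glycogen synthase, fell by 0.26 (adjusted p = 0.0130), a call lost without aged replicates 3 and 6 together (-0.24, adjusted p = 0.0511). Pgm1 encodes the phosphoglucomutase that links glucose 1-phosphate with glucose 6-phosphate and fell by 0.31 (adjusted p = 0.0365), although neither of its 2 probe sets passed alone (-0.42 and -0.19). The other 16, among them the catalytic gamma subunit genes Phkg1 (-0.12, adjusted p = 0.494) and Phkg2 (0.13 ± 0.06, SE), did not pass. The liver form genes Gys2 and Pygl gave differences of -0.00097 and 0.01. The list's median difference was -0.0032, against -0.0050 over all genes.

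Of 20 listed genes of glucose entry and of the insulin, AMP kinase and adrenergic inputs 19 were measured, 2 fell and 0 rose by limma, where 11.9% of all genes passed. An unadjusted p under 0.05 was found for 7 of the 19, against 3738 of all 14217 genes. Prkab1 encodes the beta1 subunit of AMP-activated kinase, which carries a glycogen-binding module. It had -0.07, -0.61, -0.40, -0.38 and -0.44 in aged replicates 2 to 6, against 0.15, 0.30, 0.07, 0.13 and 0.19 in adult replicates 1, 2, 3, 4 and 6, and fell by 0.55 ± 0.08 (SE, limma adjusted p = 0.00267). The ages did not overlap, and aged replicate 2 was again the aged array nearest to the adult range. Akt1, which encodes a kinase of the insulin pathway, fell by 0.27 (adjusted p = 0.00535), with its 3 probe sets at -0.37, -0.12 and -0.33. That call was lost with the replicate number as a block (-0.26, adjusted p = 0.0604). Prkaa2, the catalytic alpha2 subunit gene of the same AMP-activated kinase, had -0.29 ± 0.09 (SE) and did not pass (adjusted p = 0.0568). Slc2a4, the gene of the insulin-responsive glucose transporter GLUT4, had a difference of -0.56 ± 0.18 (SE) that did not pass (adjusted p = 0.0674). Of its 2 probe sets 1, of the middle class, passed over all probe sets (-0.85, limma adjusted p = 0.0407, all aged arrays below all adult arrays). Its aged replicates 2 to 6 had -0.12, -1.64, -0.10, -0.84 and -0.37, against a lowest adult value of 0.10. The other probe set, of the brightest class, did not pass (-0.27, adjusted p = 0.258). The median of this list was -0.07, and 14 of the 19 had lower means in aged hearts, against 7365 of all 14217 genes. Over both lists 7 of 40 genes passed, against 11.9% of all genes. The count was 12 without aged replicate 2, and 4 when aged replicates 3 and 6 were both left out. The call of Pgm1 was lost without aged replicate 3, 5 or 6 or adult replicate 1, 3, 4 or 6 (adjusted p up to 0.0938), and that of Pgm2l1 without aged replicate 4, 5 or 6 or adult replicate 1, 2, 4 or 6 (0.0596 to 0.104).

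**Figure D5:**
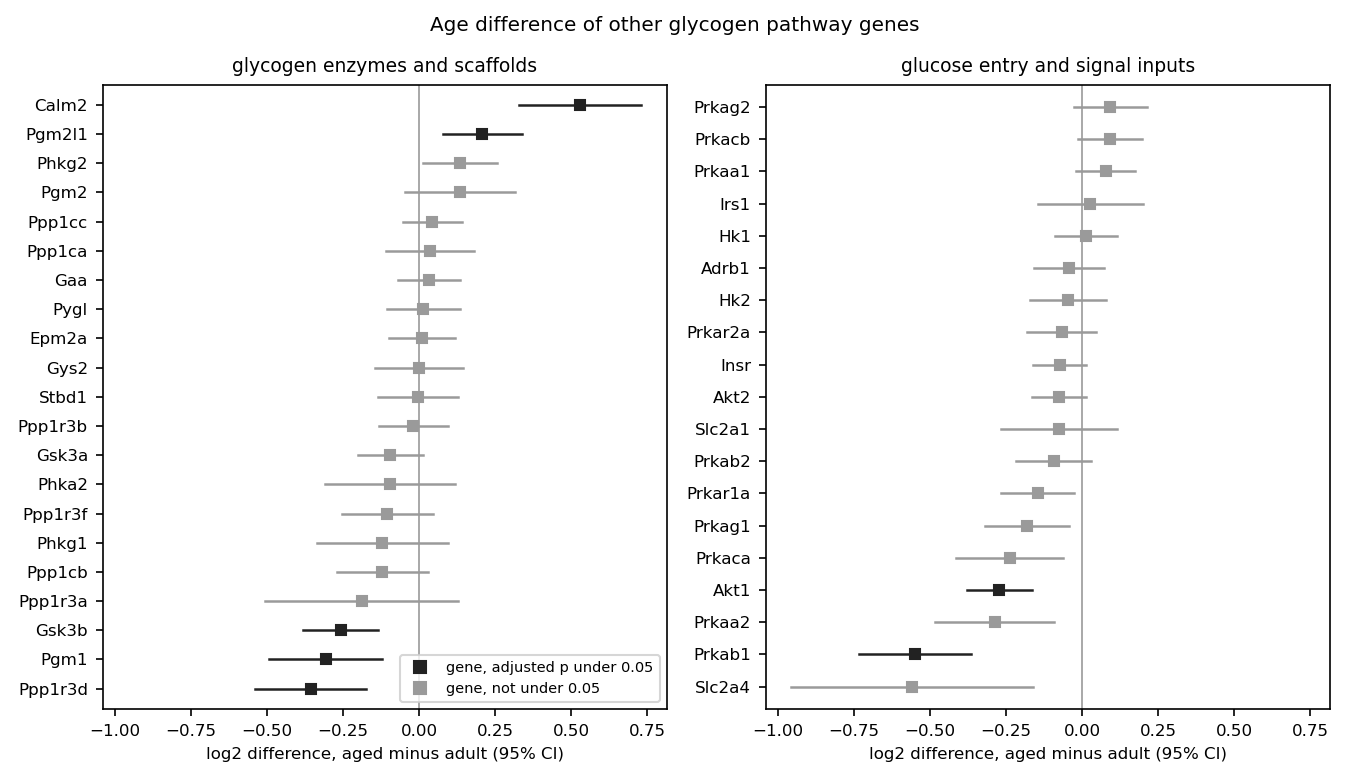
Differences of log2 values, aged minus adult, with 95% confidence intervals from limma for the 21 other glycogen enzymes and scaffolds (left) and the 19 genes of glucose entry and signal inputs (right). Black squares have an adjusted p under 0.05; Calm2 lies at 0.53 and Prkab1 at -0.55, and Slc2a4 at -0.56 has a wide interval and is not black.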

How the data were processed

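Rat heart RNA was hybridised to 5 aged and 5 adult 1-colour arrays after amplification, per the labels' protocols. The authors' deposited table gives signed log values, used as log2 values, for 31042 probe sets. Their base was worked out from the spacing of the values. Software, background correction and scaling: not given in the sources used here. The median over the 10 arrays was 0 for each probe set, to within 4.78e-07. Detection above background was not examined, and precision is limited by the number of arrays. The highest correlation between arrays was 0.570.

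Probe sets with 1 gene symbol (20826; 436 had several, 9780 none listed) were named through the platform annotation, with symbols updated by gene identifier through RefSeq GRCr8 (20758 matched), and averaged per gene. Brightness classes came from the step, with a tolerance of 0.1 steps. The ages were compared per gene with limma 3.58.1 (R 4.3.3), without the replicate block and with a threshold of 0.05. The fit was tested on simulated data with shifts larger than the difference of any member, so that test does not bear on differences of the members' size. Python 3.11.15, numpy 2.4.6, pandas 2.3.3, scipy 1.17.1 and matplotlib 3.10.9 served the rest.

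The members and lists were chosen with earlier results of these data known. The genes named were all members, the genes past the threshold of the 2 lists (at least the 3 smallest p), and the 3 nearest in pattern to the 2 members of smallest p. Beyond these, Phkg1, Phkg2, Gys2, Pygl and Slc2a4 were named after their values were seen, as were the markers with calls or large values. Some listed genes are not reported here. Alternatives were scaling, array weights, robust moderation, probe set summary, brightness, a replicate block and left-out arrays. Background correction and slide were not varied, since the table holds neither.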

Additional observations from a re-analysis of the deposited data

Results flagged for a closer look

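Gys1 minus Pygm was 0.41 in aged replicate 2, far from the other 4 aged arrays, which lay between 0.00 and 0.11. Aged replicate 2 was the 1 array that stood apart in this way among 48 groups of 5 arrays examined, and chance flags about 1 group in 20. Without it the difference between the ages was 0.12 (exact permutation p = 0.0317, adjusted p = 0.0952).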

How the results depend on the processing

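Pygm kept its direction and its call under all 18 alternatives, with differences of -0.62 to -0.47. Gyg1 lost its call with the replicate block (adjusted p = 0.0527) and without aged replicates 3 and 6 together, and Gys1 under 8 of 18, among them the replicate block (0.0970). The numbers 2, 3, 4 and 6 of the titles occur at both ages. Deviations of same-numbered arrays correlated at 0.03 to 0.15. No value for arrays of different numbers was set beside this, so it does not decide whether they are pairs. The main fit did not take them as pairs. With the replicate block 1069 genes, 1640 probe sets, 1 member (Pygm) and 4 other listed genes (Prkab1, Calm2, Gsk3b and Ppp1r3d) were called, and Akt1, Pgm1 and Pgm2l1 were not. Aged replicate 5 and adult replicate 1 have no partner of the same number, so results with the block rest on the 4 pairs. They therefore differ from the main fit in the arrays used as well. Gys1 minus Pygm was then 0.20. Exact permutation of the ages within pairs gave p = 0.125, the smallest that 4 pairs allow. Phkb minus Phka1 was 0.0291 and Phkb 0.0205. Without aged replicates 3 and 6 together, chosen after seeing the data, 1012 genes, 1526 probe sets, 1 member and 4 other listed genes were called. Gys1 minus Pygm was then 0.27 (exact permutation p = 0.0357, the smallest that the remaining arrays allow, adjusted p = 0.0536). With Phkb minus Phka1 at an adjusted p of 0.607, this adjusted p could not fall under 0.05, so the lost call says nothing of the difference. Phkb minus Phka1 was 0.12 and Phkb 0.10. Leaving out 1 array gave 988 to 1994 genes, 1481 to 2943 probe sets, 2 to 4 members and 5 to 12 other listed genes. It gave 0.12 to 0.22 for Gys1 minus Pygm, 0.25 to 0.45 for Pygb minus Pygm, -0.12 to 0.0945 for Phkb minus Phka1, -0.0516 to 0.0920 for Ugp2, -0.0396 to 0.0265 for Phka1 and -0.11 to 0.0855 for Phkb. Gys1 minus Pygm was 0.13 with the median of probe sets and 0.11 without the dimmest class. Signs near 0 also turned for Phkb minus Phka1 (0.0154) and Phkb (0.0089) with quantile normalization, for Phkb with array weights (0.0404) and for Phka1 with each array centred on its median (0.0026). The cause was not tested.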
